A study of Mus musculus with 4 samples.

Results

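Angpt1, Angpt2, Tek, Cxcl12, Cxcr4, Thbs2, Cdh5, Vegfa, Flt1 and Kdr are genes of endothelial growth, the angiopoietin axis and the chemokine axis of vessels. They were chosen by name, with earlier results of these data known, so counts of them beside the share of all genes are a description. Every Bmal1 peak that the deposited lists annotate to one of them was taken. They are 10 of the 21027 curated protein-coding RefSeq genes of the mouse. The peaks come from chromatin immunoprecipitation with an antibody against Bmal1 followed by sequencing (ChIP-seq) of whole mouse retina at postnatal day 3 (P3, replicates 4 and 5) and at postnatal day 5 (P5, replicates 2 and 3). The comparison of the ages asks how Bmal1 occupancy differs as the retina becomes vascularized. All retinas were collected at zeitgeber time 4 (ZT4), the labels name no strain, genotype or treatment for these libraries, and 1 input library served as background for all. The sources give different catalogue numbers for the antibody. No statement says whether the libraries of an age came from separate animals, so spread between them may be technical. Whole retina holds mostly neurons and few endothelial cells, and the lists do not tell in which cells a peak arose.

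Bmal1 is a transcription factor of the circadian clock that binds DNA together with Clock, at E-boxes, and drives rhythmic transcription of its targets. In the postnatal retina, vessels grow out from the optic nerve head over a network of astrocytes. Vegfa guides and expands the endothelial sprouts through its receptors Kdr and Flt1, the angiopoietins act through the endothelial receptor Tek (Tie2) on vessel growth and stability, and Cxcl12 acts through Cxcr4 on sprouting cells.

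The 4 libraries differ in how many peaks were called. P3 replicate 4 has 9543 narrow and 25380 broad peaks from 55.2 M tags, the fewest tags of the 4 libraries, whereas the other 3 libraries have 200 to 1336 narrow and 7435 to 10782 broad peaks from 62.0 to 68.3 M tags. Narrow peaks have a median width of 144 to 170 bp and broad peaks of 500 bp. The score of a peak is its number of tags per 10 M tags. The libraries of an age were also pooled before calling, which gave 3625 narrow peaks at P3 and 486 at P5. The numbers of peaks are therefore dominated by 1 library.

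A peak with its center within 10 kb of the transcription start site (TSS) was called in a single library for 5 of the 10 genes, against 21.2% of all genes. The 5 genes are Thbs2, Vegfa, Tek, Angpt2 and Angpt1. The 10 genes have more sequence around them than most genes, as given below, and the shares within 10 kb were not corrected for it. In the broad list of P3 replicate 4 these were 4 genes, against 9.9% of all genes. Thbs2 has its peak 706 bp inside the gene (score 6.34), Vegfa at 2872 bp (score 7.25), Tek at 4829 bp (score 6.16) and Angpt1 at 8689 bp (score 5.62). In the broad list of P3 replicate 5 there was 1 gene, Angpt2, at 4862 bp (score 5.17), against 4.21% of all genes. In the pooled P3 libraries Thbs2 (760 bp) and Tek (4815 bp) have a narrow peak within 10 kb, 2 genes against 1.92% of all genes. Each of these 2 narrow peaks has a score of 2.90 from 35 tags, which is rank 549 of 3625. No peak within 10 kb was called for any of the 10 genes in the P5 lists, in the narrow lists of single libraries, or in the pooled broad lists. The remaining 5 genes, Cxcl12, Cxcr4, Cdh5, Flt1 and Kdr, have their nearest peaks at 28.4 kb to 130 kb.

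The sequences of 4 of these places are shown because they are among those called nearest to the TSSs of these genes. They are given on the plus strand of GRCm38 (mm10), the narrow peaks whole and the broad peaks by their central 300 bases, with matches to the flexible E-box in capitals. The flexible E-box has the letters CACGTG, in which the third or the fourth base, or both, may be replaced by T, and it was searched on both strands. The coordinates are chr17:14693420-14693584 for Thbs2, chr4:94744022-94744186 for Tek, chr17:46029355-46029654 for Vegfa and chr8:18736550-18736849 for Angpt2.
Thbs2, P3 pooled, narrow: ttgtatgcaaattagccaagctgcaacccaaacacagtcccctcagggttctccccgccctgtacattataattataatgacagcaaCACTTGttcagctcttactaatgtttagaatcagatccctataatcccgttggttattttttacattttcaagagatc
Tek, P3 pooled, narrow: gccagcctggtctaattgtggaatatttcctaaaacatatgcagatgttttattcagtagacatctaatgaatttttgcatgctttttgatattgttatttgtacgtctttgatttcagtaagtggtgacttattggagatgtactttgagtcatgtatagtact
Vegfa, P3 replicate 4, broad: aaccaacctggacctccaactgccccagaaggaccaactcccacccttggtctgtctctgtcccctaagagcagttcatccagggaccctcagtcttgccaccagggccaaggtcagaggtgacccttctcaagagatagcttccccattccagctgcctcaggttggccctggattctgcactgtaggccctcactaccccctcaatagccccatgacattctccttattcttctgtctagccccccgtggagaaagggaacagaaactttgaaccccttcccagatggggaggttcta
Angpt2, P3 replicate 5, broad: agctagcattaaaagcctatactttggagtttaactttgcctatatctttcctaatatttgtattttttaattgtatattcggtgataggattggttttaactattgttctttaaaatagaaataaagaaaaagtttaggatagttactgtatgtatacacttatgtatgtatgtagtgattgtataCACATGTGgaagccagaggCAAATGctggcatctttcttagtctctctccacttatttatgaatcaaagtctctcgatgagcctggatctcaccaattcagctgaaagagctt

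All of the peaks within 10 kb lie in intron 1 and hold 0 bp of exon. The Thbs2 peak holds 1 flexible match, CACTTG, which starts at position 14693507. The Angpt2 peak holds 3 matches, of which the first and second overlap. The full broad peak of Vegfa holds 1 match, outside the printed bases, that of Angpt1 holds 2, and neither of the overlapping Tek peaks holds one. None holds the exact CACGTG. Vegfa has 2 annotated TSSs, and its peak lies 2872 bp inside the gene from the upstream TSS and 4342 bp upstream of the other. The promoter window of 300 bases that spans the TSS was matched by symbol for 7 of the genes, in 8 windows (RefSeq, GRCm38). It holds a flexible match for Tek and Thbs2, 2 matches each, and the exact CACGTG for none, while 40.4% of all 32851 such windows hold the flexible and 7.15% the exact motif. A match describes letters and does not show that Bmal1 binds there.

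**Figure D1:**
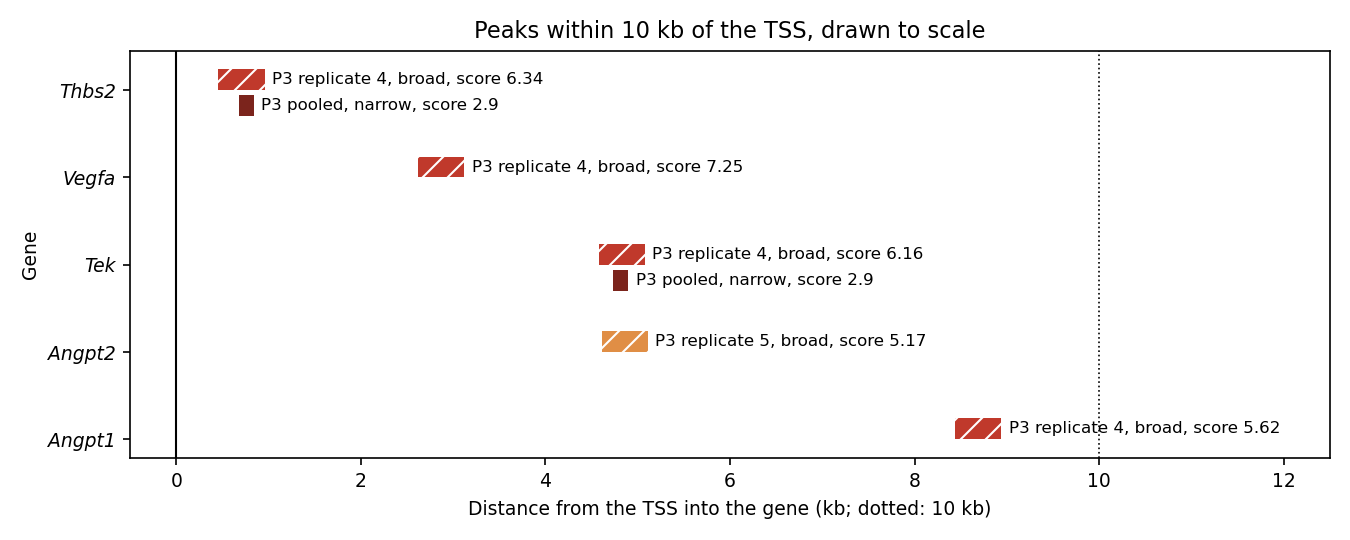
Peaks within 10 kb of the TSS of the 10 genes, each bar spanning the peak (x axis: distance from the TSS in kb; y axis: gene; full bars: narrow peaks, hatched bars: broad peaks, with library and score beside them). All 7 bars are P3 peaks, and the overlapping broad and narrow calls at Thbs2 and Tek come from P3 replicate 4 and from the pool that contains it.

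The nearest peaks outside the limit of 10 kb were in Tek at 18.8 kb (narrow, P3 replicate 4) and at 22.0 kb (broad, P5 replicate 2), and in Angpt1 at 24.7 kb (narrow, P3 replicate 4). With a limit of 5 kb Angpt1 drops out, and with a limit of 20 kb the same 5 genes are counted.

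At any distance, each of the 10 genes had at least 1 peak in a single library, against 45.8% of all genes. Narrow peaks were called for 7 of the 10 genes in P3 replicate 4 (all but Angpt2, Vegfa and Kdr), against 20.1% of all genes. None of the 10 had a narrow peak in P3 replicate 5, P5 replicate 2 or P5 replicate 3, where 3.05%, 0.709% and 4.29% of all genes had one. The pooled P3 list has 5 genes (Angpt1, Tek, Cxcl12, Thbs2 and Cdh5), against 9.56%, and the pooled P5 list has 1 (Cxcr4), against 1.6%.

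Broad peaks were called for 9 of the 10 genes in P3 replicate 4 (all but Angpt2), against 30% of all genes. In P3 replicate 5 there were 3 genes (Angpt1, Angpt2 and Cxcl12), against 16.4%. In P5 replicate 2 there were 3 genes (Angpt1, Tek and Cxcr4), against 13.1%, and in P5 replicate 3 there were 4 (Angpt1, Tek, Thbs2 and Kdr), against 16.6%. The pooled broad lists have 6 genes at P3, against 23%, and 3 at P5, against 9.17%. Angpt1 was the only one of the 10 with a broad peak in every library.

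**Figure D2:**
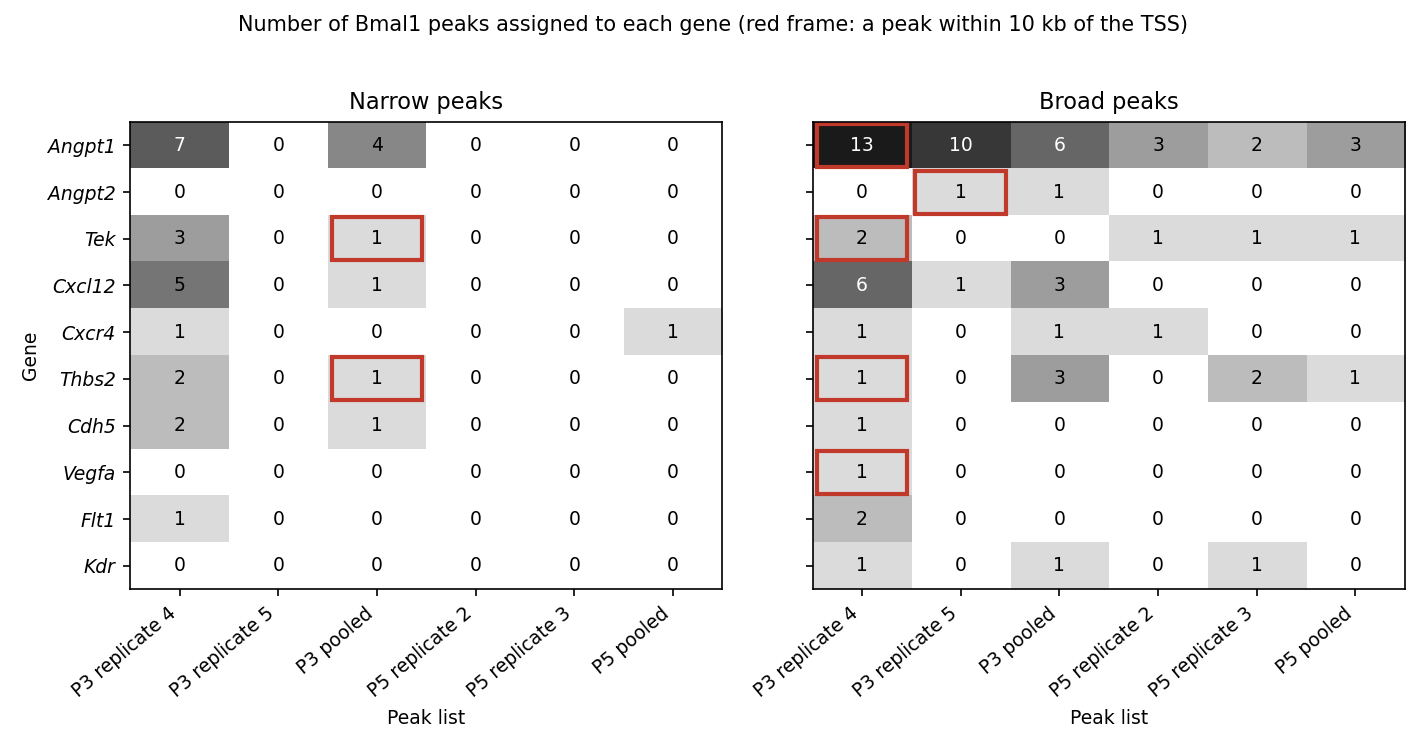
Number of narrow (left) and broad (right) Bmal1 peaks assigned to each gene (rows) in each list (columns), with darker cells for more peaks and a red frame where a peak lies within 10 kb of the TSS. Single-library narrow peaks are seen in P3 replicate 4 alone, and Angpt1 has broad peaks in all lists.

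Peaks were assigned to the nearest TSS, so that a gene with more sequence around it can receive more of them. A gene's surrounding sequence was taken as the sequence nearer to its TSS than to that of any other gene. The median over all genes was 42.4 kb, and the 10 genes have 118 kb (Vegfa) to 651 kb (Angpt1), which puts each of them at or above the 80.6 percentile of genes. Of the 51 broad peaks annotated to the genes over the 4 libraries, 49 lie in this sequence of 2865 kb and 2 annotated to Cxcl12 lie nearer to another TSS. That is 1.71 per 100 kb, against 1.96 per 100 kb over the genome. Without P3 replicate 4, a comparison added after the data were seen, the values are 0.803 and 1.03 per 100 kb. The 9 genes other than Angpt1 had 21 broad peaks, or 0.949 per 100 kb. Angpt1 had 4.30 and Tek 3.03 per 100 kb, which are 2.31 and 1.52 without P3 replicate 4, and the other 8 genes had 0.398 (Cdh5) to 1.28 (Cxcl12). So the count of genes with a peak lies above the share of all genes, while the number of peaks per length of sequence does not lie above that of the genome. Because the genes were chosen with earlier results of these data known, this count is no independent result.

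**Figure D3:**
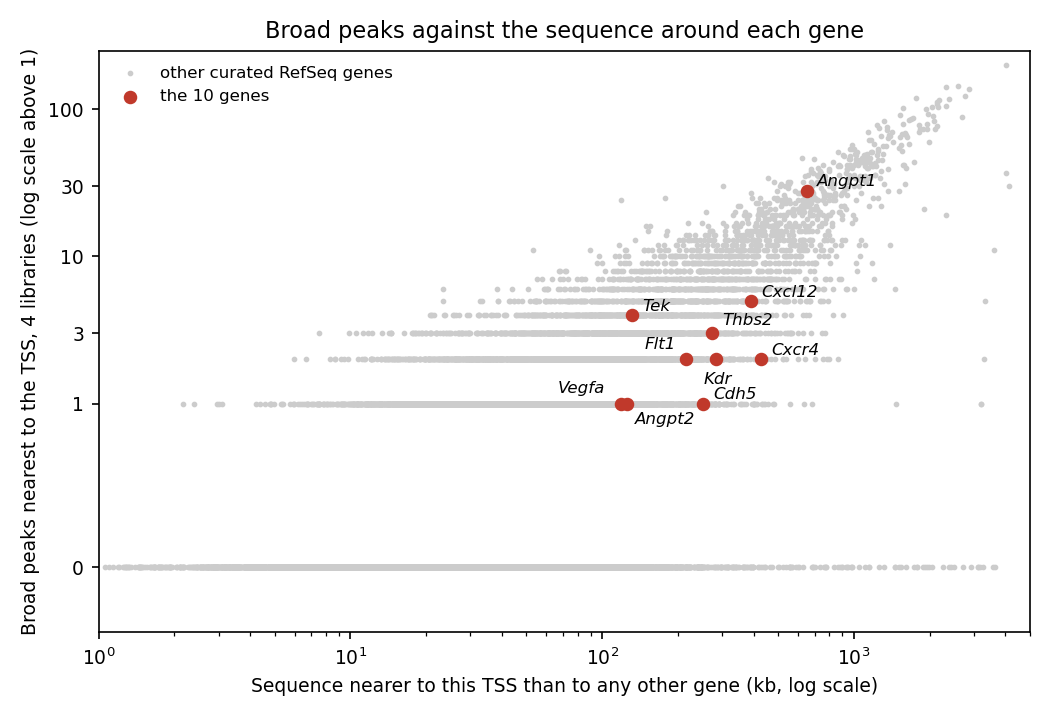
Broad peaks nearest to the TSS of each gene over the 4 libraries (y axis, log scale above 1) against the sequence nearest to its TSS (x axis, kb, log scale), for the 10 genes (red) and all other curated RefSeq genes (gray). Angpt1, with 28 peaks and 651 kb, lies at the upper right, and the other 9 genes have 1 to 5 peaks.

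Among the ligands of Tek, Angpt1 encodes the agonist that mural cells supply to endothelial cells. It lies at chr15:42424667-42676977 on the minus strand and spans 252 kb, and it had more peaks than any other of the 10 genes. Broad peaks numbered 13 in P3 replicate 4, 10 in P3 replicate 5, 3 in P5 replicate 2 and 2 in P5 replicate 3. The broad lists differ in length, with 25380, 10782, 7435 and 9915 peaks in that order. The shares of Angpt1 in them were 0.0512%, 0.0927%, 0.0403% and 0.0202%. Of the 845 genes with 10 or more broad peaks, 18.6% likewise had a higher share in both P3 libraries than in both P5 libraries. The 28 broad peaks of Angpt1 put it at rank 224 of the 8606 genes with a broad peak. Scores ran from 4.53 to 9.06 in P3 replicate 4, from 4.41 to 6.85 in P3 replicate 5, from 4.03 to 5.48 in P5 replicate 2 and from 4.25 to 4.54 in P5 replicate 3. Narrow peaks numbered 7 in P3 replicate 4, with scores of 3.63 to 4.71, and 0 in the other libraries. The peaks were spread from 226 kb upstream of the TSS to 386 kb downstream, beyond the end of the gene.

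**Figure D4:**
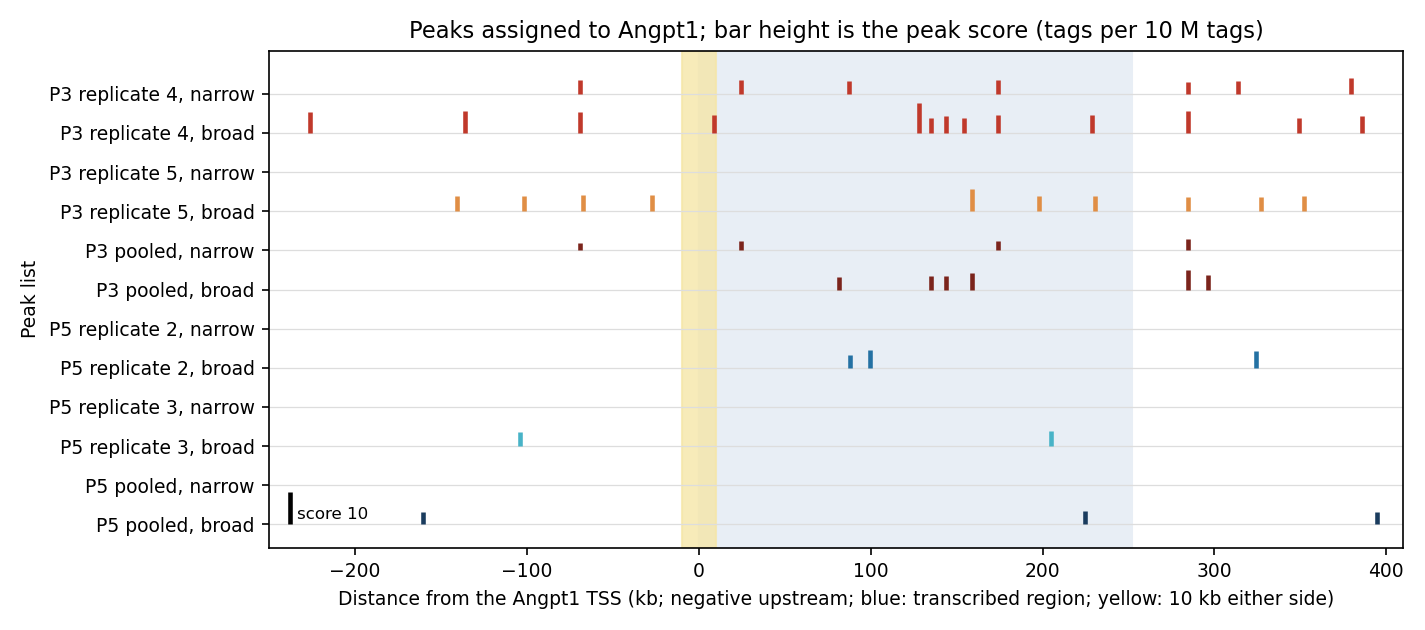
Peaks assigned to Angpt1 by list (rows), placed by distance from the TSS (x axis, kb), with bar height proportional to the score in tags per 10 M tags. Broad peaks number 13 and 10 in the P3 libraries, from lists of 25380 and 10782 broad peaks. In the P5 libraries they number 3 and 2, from lists of 7435 and 9915. Only 1 place was called in more than 1 library.

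The place of Angpt1 called most often lies 285 kb from the TSS, beyond the gene's end, at chr15:42391977-42392619. It was called broad in P3 replicate 4 (score 6.71) and in P3 replicate 5 (score 4.41), narrow in P3 replicate 4 (score 3.63), and both narrow (score 3.39, rank 58 of 3625) and broad (score 5.87) in the pooled P3 libraries. No P5 list has it. The narrow peak of the pool, chr15:42392229-42392393, is rich in A and T (24.8% GC) and holds no flexible E-box.
Angpt1, distal, P3 pooled, narrow: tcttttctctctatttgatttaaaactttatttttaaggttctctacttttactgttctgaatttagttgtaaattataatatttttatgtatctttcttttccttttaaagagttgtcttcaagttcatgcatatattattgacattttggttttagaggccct

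Angpt2 encodes the ligand that opposes or replaces Angpt1 at Tek in a manner that depends on context, and it marks sprouting endothelium. It lies at chr8:18690263-18741562 on the minus strand. It had the single broad peak in intron 1 in P3 replicate 5 described above and none in the other 3 libraries. The pooled P3 libraries had a broad peak 37.0 kb upstream (score 4.05) and none at the place in intron 1. The annotation puts this pooled peak in intron 12 of 13 of a transcript other than that of Angpt2.

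Tek, the receptor (chr4:94739086-94874976, plus strand), had narrow peaks in P3 replicate 4 only, at 18.8, 42.2 and 73.0 kb from the TSS (scores 3.08, 3.26 and 3.26), and broad peaks in 3 libraries. These broad peaks were at 4.83 and 42.4 kb in P3 replicate 4 (scores 6.16 and 5.62), at 22.0 kb in P5 replicate 2 (score 4.36) and at 41.9 kb in P5 replicate 3 (score 4.25). All lie in introns of Tek. The P5 replicate 3 peak overlaps the narrow peak of P3 replicate 4 by 18 bp and its broad peak by 4 bp.

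Of the VEGF axis, Vegfa, the main growth factor of endothelial sprouting (chr17:46016993-46032377, minus strand), had only the peak in intron 1 in P3 replicate 4, which is in the upper part of its list (rank 2755 of 25380). Flt1, which binds Vegfa and limits its action (chr5:147561604-147726438, minus strand), had a broad peak 54.4 kb upstream (score 5.80) and overlapping narrow (score 2.90) and broad (score 5.62) peaks at 96.5 kb in intron 14, all in P3 replicate 4. Kdr, the receptor that carries most of the Vegfa signal (chr5:75932827-75979072, minus strand), had a broad peak 53.3 kb upstream in P3 replicate 4 (score 6.89) and at 39.7 kb, in intron 27, in P5 replicate 3 (score 4.39). It had no narrow peak.

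Cxcl12, a chemokine ligand (chr6:117168535-117181368, plus strand), had 5 narrow and 6 broad peaks in P3 replicate 4, 1 broad peak in P3 replicate 5 (67.0 kb, score 4.57) and none at P5. All lie in intergenic sequence. The peak 190 kb upstream has the highest narrow score of the 10 genes in a single library, 5.98 from 33 tags (rank 32 of 9543), and it was also called in the pooled P3 libraries (score 3.31, rank 83 of 3625). It was not called in P3 replicate 5. The pooled narrow peak, chr6:116978215-116978379, holds no flexible E-box.
Cxcl12, distal, P3 pooled, narrow: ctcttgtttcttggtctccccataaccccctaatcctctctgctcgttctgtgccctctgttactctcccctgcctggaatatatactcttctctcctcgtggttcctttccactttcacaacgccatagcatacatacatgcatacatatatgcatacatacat

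Cxcr4, its receptor (chr1:128588199-128592299, minus strand), had a narrow peak 130 kb upstream (score 4.17) and a broad peak 135 kb upstream (score 5.62) in P3 replicate 4, and a broad peak 326 kb upstream in P5 replicate 2 (score 6.61). The narrow peak of the pooled P5 libraries, 300.1 kb upstream (score 2.15, rank 304 of 486), was not called in either P5 library. The broad peak at 135 kb holds the only exact CACGTG among the 51 broad and 21 narrow peaks of single libraries. Over all genes, 3.01% of the broad and 1.16% of the narrow peaks of single libraries hold the exact motif. The Cxcr4 peak with CACGTG is annotated to an MTEb repeat (LTR, ERVL-MaLR). The same letters are in the pooled P3 broad peak there. The bases around it, chr1:128727770-128727875, are given for that reason.
Cxcr4, distal, P3 replicate 4, broad: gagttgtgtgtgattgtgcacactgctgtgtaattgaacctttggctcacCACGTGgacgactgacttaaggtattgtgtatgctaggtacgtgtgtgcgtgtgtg

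Thbs2, a matricellular inhibitor of angiogenesis (chr17:14665500-14694262, minus strand), had in addition to its peak in intron 1 narrow peaks 44.0 kb upstream (score 3.44) and 42.1 kb downstream (score 4.17) of the TSS in P3 replicate 4, and broad peaks 49.7 kb upstream (score 4.39) and 79.8 kb downstream (score 5.42) in P5 replicate 3. The place at 79.8 kb was also called in the pooled P5 libraries (score 3.99). Cdh5, which encodes VE-cadherin of endothelial junctions (chr8:104101613-104144504, plus strand), had narrow peaks 226 and 145 kb upstream (scores 3.44 and 2.90) and a broad peak 28.4 kb upstream (score 5.44), all in P3 replicate 4. Its pooled P3 narrow peak, 161 kb upstream (score 2.48), overlaps no peak of the single P3 libraries. A broad peak just beyond the end of Cdh5, chr8:104150293-104150793 in P3 replicate 5 (score 4.41), was annotated to the neighbor Bean1 and is not counted here. Vegfa, Flt1, Cdh5 and Angpt2 each had peaks in 1 library only, which was P3 replicate 4 for the first 3 of them.

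**Figure D5:**
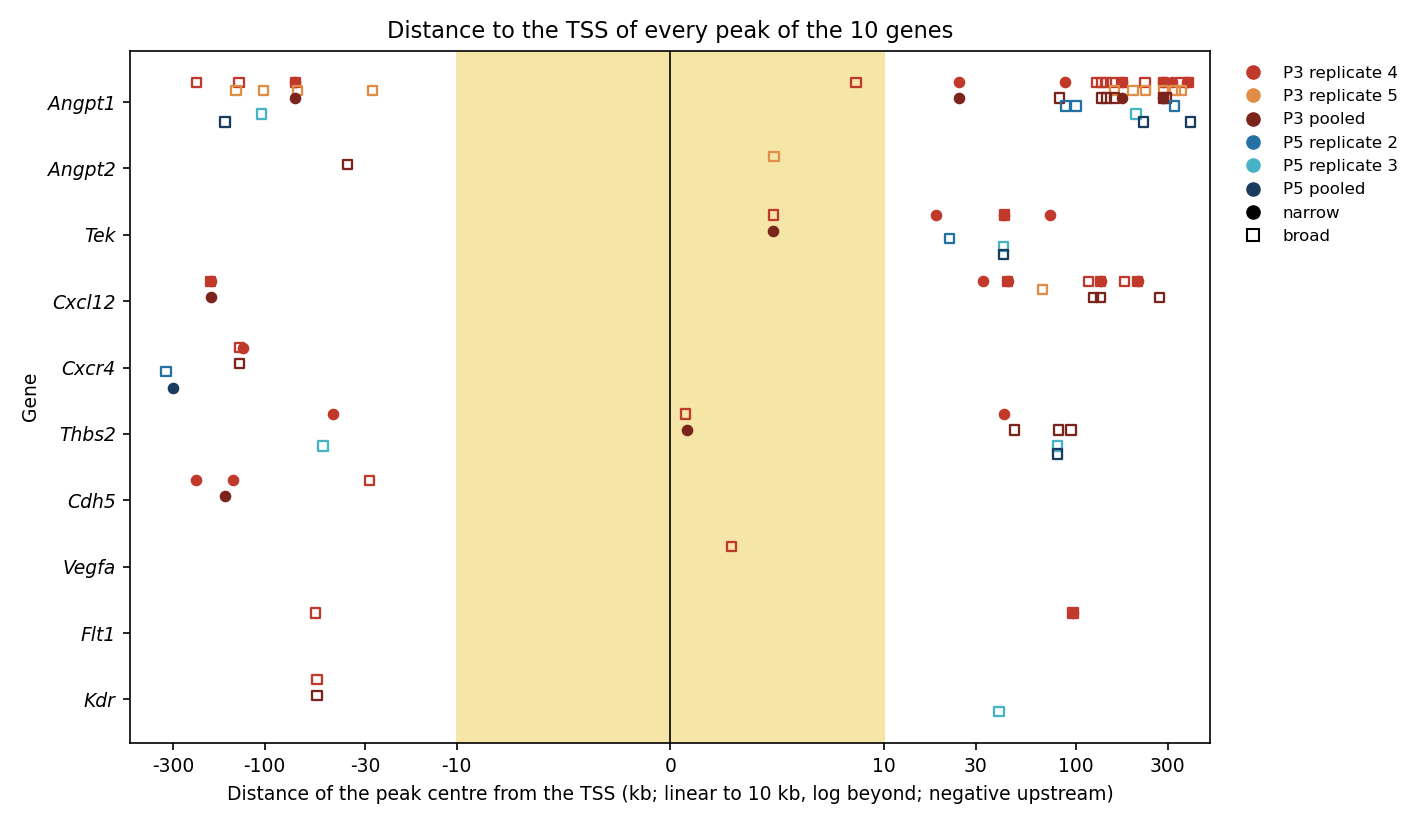
Distance from the TSS of every peak of the 10 genes (x axis, kb, linear to 10 kb and logarithmic beyond, negative upstream), by gene (rows), list (color) and kind (filled circles: narrow, open squares: broad). The yellow band marks 10 kb on either side of the TSS, and its 7 peaks belong to 5 genes.

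The ages were compared over the 4 libraries with a two-sided exact permutation test, in which 2 libraries against 2 cannot give a p below 0.333. The number of the 10 genes with a narrow peak was 7 and 0 at P3 and 0 and 0 at P5, with means of 3.5 and 0 (exact permutation p = 1). The number with a broad peak was 9 and 3 at P3 and 3 and 4 at P5 (means 6 ± 4.24 and 3.5 ± 0.707, SD, n = 2, exact permutation p = 1). Without P3 replicate 4 the difference in genes with a narrow peak is 0. The narrow lists of the other libraries are short, and a count of 0, taken as fewer than 3 peaks (close to a one-sided 95% limit), allows a share of up to 0.318% of the 944 peaks of P3 replicate 5, 1.5% of the 200 of P5 replicate 2 and 0.225% of the 1336 of P5 replicate 3. The 21 peaks of the 10 genes in P3 replicate 4 are 0.220% of its list (95% Clopper-Pearson interval 0.136 to 0.336%), so a difference was not detectable at this depth.

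As a share of the broad list, peaks of the 10 genes were 0.110% and 0.111% at P3 and 0.0672% and 0.0605% at P5. The groups do not overlap, and the difference of means (0.111% ± 0.000688 against 0.0639% ± 0.00476, SD, n = 2) gave the smallest possible exact permutation p of 0.333. The counts behind these shares are 28, 12, 5 and 6 peaks, and their 95% Clopper-Pearson intervals, which cover counting error only, overlap (0.0733 to 0.159% and 0.0575 to 0.194% at P3, and 0.0218 to 0.157% and 0.0222 to 0.132% at P5). Angpt1 alone had 0.0512% and 0.0927% at P3 and 0.0403% and 0.0202% at P5 (exact permutation p = 0.333, n = 2 per age). For the 9 other genes the shares were 0.0591% and 0.0185% against 0.0269% and 0.0403% and overlap (exact permutation p = 1, n = 2 per age). Gene by gene, the share was higher in both P3 libraries than in both P5 libraries for Angpt1 and Cxcl12, 2 of the 10 genes. Of the 8606 genes with a broad peak, 10.1% showed this order, and of the 845 genes with 10 or more broad peaks 18.6% did.

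To see whether the same sequence was called again, overlapping peaks of single libraries were joined. The 72 peaks of the 10 genes fall into 61 places, 31 of them at Angpt1. Peaks of at least 2 libraries were found at 2 places (3.28%), the distal place of Angpt1 and the place in intron 2 of Tek, against 3.26% of the 59698 places over all peaks. The Tek place joins a P3 and a P5 library by an overlap of few bases and is lost when an overlap of 50% of the shorter peak is required. Without P3 replicate 4 no place is left. Of the pooled narrow peaks, 7 of 8 at P3 and 0 of 1 at P5 overlap a peak of a single library of that age. Of the pooled broad peaks, 7 of 15 at P3 and 2 of 5 at P5 do. The pools contain these libraries, so such an overlap is no independent call, and the share over all pooled peaks was not computed. Each overlapping P3 narrow peak overlaps P3 replicate 4, and only the distal place of Angpt1 also overlaps P3 replicate 5.

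The 21 narrow peaks of single libraries comprised 14 intergenic and 7 intronic peaks (33.3% intronic, against 37.9% of all narrow peaks). The 51 broad peaks comprised 29 intergenic and 22 intronic ones (43.1% intronic, against 34.5% of all). By the authors' annotation, none of these peaks lies in an exon or at a promoter. Over all genes, 448 of 12023 narrow and 1479 of 53512 broad peaks are neither intergenic nor intronic. The annotation gives a repeat for 8 of the narrow peaks (38.1%, against 32.6% of all) and 18 of the broad peaks (35.3%, against 30.4%). Counted with words of 31 bases, each of the 30 narrow and 71 broad peaks of these genes in single-library and pooled lists has a median of 1 copy in the genome. At least 93.9% of the words of each narrow peak and 62.0% of those of each broad peak occur once.

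A flexible E-box was found in 3 of the 21 narrow peaks, or 14.3% (95% Clopper-Pearson interval 3.05 to 36.3%), against 30.6% of all narrow peaks of single libraries. With the pooled lists it was found in 6 of 30 peaks, against 31.2% of all narrow peaks. In broad peaks, which are longer, it was found in 41 of 51, or 80.4% (66.9 to 90.2%), against 69.7%. Both intervals cover counting error only, and each contains the share over all peaks. By library, the broad peaks with a match were 23 of 28 in P3 replicate 4, 9 of 12 in P3 replicate 5, 5 of 5 in P5 replicate 2 and 4 of 6 in P5 replicate 3. Extending the 30 narrow peaks by 300 bp on either side gave a match in 26, or 86.7%, against 83.9% of all narrow peaks. The median GC content was 38.6% in the 21 narrow peaks and 37.2% in all.

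By the level of the highest score per list, the genes most like Angpt1 over the 8 single-library lists are Dcc, Chl1, Rims2, Nrg3 and Mir28c, which differ from it by a sum of 1.66 to 2.34 score units over the 8 lists. Each has a narrow peak in P3 replicate 4 only and a broad peak in all 4 libraries. The likeness is a description over lists that share the input library.

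Among the other genes of vessel growth, 116 of 117 names in 11 lists are in the reference. A narrow peak in any single library was annotated to 41 of them, against 23.1% of all genes, and a broad peak to 56, against 40.9%. P3 replicate 4 holds 9543 of the 12023 narrow peaks of single libraries. The sequence around these genes was not taken into account. The pooled P3 narrow list has 16 of the 116 genes, against 9.56% of all genes. The pooled P5 narrow list has 2 of the 116, against 1.6% of all genes. A peak within 10 kb in a single library was found for 23 of the 116 genes, near the 21.2% of all genes given above. The counts of the separate lists that follow stand beside this same share of 21.2%, and most lists hold few genes.

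In the VEGF list, with 0 of 7 genes within 10 kb, the co-receptor gene Nrp2 had the highest narrow score (4.89, 266 kb upstream). In the angiopoietin list, Angptl1 had a broad peak 6.02 kb upstream in P3 replicate 4. In the chemokine list, with 1 of 5, Cxcl10 had a broad peak 4.18 kb upstream in P5 replicate 3. By the annotation, these peaks lie inside transcripts other than those that start at the TSSs named. The Nrp2 peak is in intron 18 of 22, the Angptl1 peak in exon 9 of 20 and the Cxcl10 peak in intron 2 of 9.

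Of the thrombospondins and matrix inhibitors, 3 of 11 were near a peak, namely Thbs4 (4.39 kb upstream) and Cd36, a thrombospondin receptor (4.12 kb), in P3 replicate 5 and Cd47, another such receptor (8.60 kb), in P3 replicate 4, and the highest narrow score was that of Timp3 (3.99). Of the junction and surface genes, 2 of 13 were, Jam2 (7.53 kb upstream) and Cd34 (9996 bp upstream), both with narrow peaks of P3 replicate 4. Of the Notch and tip cell genes, 2 of 12 were, Hes1, a Notch target (6.60 kb, P3 replicate 4), and Jag1, a Notch ligand (8.86 kb upstream, P5 replicate 2).

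In the Norrin and Wnt list, 2 of 6 had such a peak, the Norrin co-receptor genes Lrp6 (1.11 kb) and Tspan12 (2.23 kb), both in P3 replicate 4, and Ndp, which encodes Norrin, had the highest narrow score (4.53). In the hypoxia list, 4 of 8 did, against 21.2% of all genes and 23 of 116 over all lists. Hif1a, the oxygen-regulated factor, had overlapping narrow (3.75 kb, score 3.08) and broad (3.85 kb, score 5.44) peaks in intron 1, Egln3 had overlapping peaks 9.67 and 9.75 kb upstream (scores 4.89 and 9.06) and Vhl a broad peak at 4.41 kb, all in P3 replicate 4. Hif3a had a narrow peak 0.536 kb upstream of its TSS in P5 replicate 3 (score 2.93).

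Of the endothelial transcription factors, 4 of 15 were near a peak, Etv2 (2.95 kb) and Foxo1 (6.46 kb) in P3 replicate 4 and Klf2 (6.37 kb upstream) and Sox18 (6.16 kb) in P5 replicate 2. Of the VEGF receptor signaling genes, Vav2 (3.08 and 8.10 kb) in P3 replicate 4 and Ptk2 (7.20 kb) in P5 replicate 3 were near a peak, and Pik3r1 had the highest narrow score (4.17). Of the 11 mural cell genes none was, and S1pr1 had the highest narrow score (3.81, 210 kb from its TSS).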

How the data were processed

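Bmal1 ChIP-seq was measured in retina at P3 and P5, each age having 2 libraries. Reads were trimmed (Trim Galore) and aligned to GRCm38 (mm10) with bowtie2, and peaks were called against 1 input library. MACS2 is named for the calling, and the list headers name HOMER annotatePeaks. Tool versions and calling thresholds: not given in the sources used here (labels, headers, Methods and Reporting Summary). The labels also list hg38, but the coordinates are those of mm10. The deposited peak score is in tags per 10 M tags, scaled to depth by the authors, and other deposited columns are coordinates and distances to the TSS in bp. The list that pools all 4 libraries was not used, and 0 columns of single samples were left out.

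The members and gene lists were chosen with earlier results of these data known. The 10 genes were named by the choice of genes. Of the 117 pathway genes, those with a peak within 10 kb in a single library and the gene with the highest narrow score of each list were named, though a few genes and 1 sequence are not reported here. The gene most like Angpt1 was sought over the highest scores per list. Tags per library were taken from the step of which narrow scores are whole multiples (tolerance 0.0052). Peaks were counted by the authors' gene annotation, beside the share of all genes with a peak, and by library. Libraries were compared by exact permutation tests, and the counting was checked on simulated peaks. Sequences and annotation were read from the RefSeq GRCm38 assembly. Alternatives were broad lists, the upper 50% of scores, other distances, another gene assignment, stricter overlaps, other E-box patterns and leaving out each library. Calculations used Python 3.11.15, numpy 2.4.6, pandas 2.3.3, scipy 1.17.1 and matplotlib 3.10.9.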

Additional observations from a re-analysis of the deposited data

How the results depend on the processing

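Most counts rest on P3 replicate 4. The number of genes with a narrow peak in the pooled P3 libraries (5) ranged from 0 to 7 when a single library was left, without replicate 4 and without replicate 5, and was 2 within 10 kb and 3 within 100 kb of the TSS. The corresponding number at P5 (1, Cxcr4) was 3 in the broad list, but these were other genes (Angpt1, Tek and Thbs2). It was 0 with the upper 50% of scores, within 10 kb, within 100 kb, and in each library by itself. The number of genes with a peak within 10 kb (5) was 0 in narrow lists alone and 1 to 5 when leaving out each library. The number of places with 2 or more libraries (2) was 1 with an overlap of 50% of the shorter peak, 0 in narrow lists alone and 0 to 2 when leaving out each library. Of the 30 narrow peaks, 6 hold a flexible E-box, 0 the exact CACGTG and 13 any CANNTG. Over all narrow peaks, 31.2% hold the flexible and 1.16% the exact motif, and 51.2 to 61.5% by list hold any CANNTG. With 300 bp on either side 26 of the 30 hold a flexible E-box, against 83.9% of all narrow peaks. Without P3 replicate 4 and the P3 pool that contains it, 1 narrow peak is left. This Cxcr4 peak of the pooled P5 libraries holds a flexible E-box. The difference in genes with a narrow peak (3.5) ranged from 0 to 7 when leaving out each library. The latter comparisons without a library, the broad and share-based age comparisons, and the comparison without Angpt1 were chosen after seeing the data. No paired analysis was possible because the ages share no replicate number. With 2 libraries per age, no difference can pass an exact test, and the number of peaks called limits what can be seen in the narrow lists of 3 libraries.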
